A study of Mus musculus with 8 samples.

Results

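The miR-30 family is a group of microRNAs (miRNAs), short RNAs that guide Argonaute proteins to messenger RNAs and repress them. Its guide strands come from the 5′ arm of their hairpins and are named with the ending 5p. The 5 of them, mmu-miR-30a-5p, mmu-miR-30b-5p, mmu-miR-30c-5p, mmu-miR-30d-5p and mmu-miR-30e-5p (written below without the species prefix), were taken by name from the 1881 mouse miRNAs on an Agilent microarray. All 5 were detected on each of the 8 arrays, so none entered the test through 1 group alone, and they are 5 of the 316 miRNAs that were tested. The study measured miRNAs in the kidneys of db/db mice and of age-matched control mice with 1 array per sample. The 4 db/db samples came from mice homozygous for the Leprdb allele (strain label C57BLKS/J Iar -+Leprdb/+Leprdb), which lack the signalling form of the leptin receptor and become obese and diabetic. The 4 control samples carry the strain label C57BLKS/J Iar -m+/m+ and are called m/m in the source label and dbm in the titles, so their genotype at the leptin receptor stays unclear. All mice were males aged 28 weeks, and 100 ng of whole-kidney total RNA was labelled for each array. Separate mice are not stated sample by sample, so the p-values below rest on the spread between arrays, which may be technical.

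A miRNA finds its targets mainly through its seed, bases 2 to 8 from the 5′ end, which pairs with a complementary site in the messenger RNA. The members of the miR-30 family share their seed and are thus expected to share many targets. Among those known from other work are mRNAs for Snail, a driver of epithelial-mesenchymal transition, for the matrix protein CTGF, and for the autophagy protein Beclin-1. In the kidney the family is abundant in tubular epithelium and in podocytes, the filtering cells of the glomerulus, and loss of mature miRNAs in podocytes leads to glomerular damage in mice.

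The mature sequences of 3 of the 5 strands were found in RefSeq (build GRCm38.p6) and are shown because the stretch after the seed decides which strand a probe can tell from another. Capitals mark the seed, and sequences run 5′ to 3′.
miR-30a-5p: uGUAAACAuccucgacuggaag
miR-30c-5p: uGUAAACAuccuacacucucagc
miR-30e-5p: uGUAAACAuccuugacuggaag
The seed is GUAAACA in each, and the matching site in a target, its reverse complement, reads UGUUUAC. miR-30a-5p and miR-30e-5p are the same at 21 of 22 bases and differ by C13U (miR-30a-5p first, positions counted from 1 at the 5′ end). miR-30c-5p has 17 of the 22 shared positions in common with miR-30a-5p, and with C13A, G14C, G18C, G19U and A20C it departs from it only after the seed. No mature sequence was found in the same table for miR-30b-5p and miR-30d-5p. Among the miRNAs of the array found in that table, 1 further miRNA has this seed, miR-384-5p, encoded on chromosome X. It was detected on 0 of 4 db/db and 0 of 4 control arrays.
miR-384-5p: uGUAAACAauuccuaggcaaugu

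The 5 strands come from 6 genes in 3 pairs. Mir30a and Mir30c-2 lie 19.4 kb apart on chromosome 1, Mir30c-1 and Mir30e 3.1 kb apart on chromosome 4 within the gene Nfyc, which encodes a subunit of the transcription factor NF-Y, and Mir30b and Mir30d 3.8 kb apart on chromosome 15. miR-30c-5p is cut from both of its hairpins. These are shown because the capitals, the 5p strand, are the same in both, so that its signal cannot be assigned to 1 gene, while the 3p arms that follow differ.
Mir30c-1: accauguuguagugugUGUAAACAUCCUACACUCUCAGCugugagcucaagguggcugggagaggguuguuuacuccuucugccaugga
Mir30c-2: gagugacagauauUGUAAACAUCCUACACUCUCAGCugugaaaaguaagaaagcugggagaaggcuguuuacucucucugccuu
The array's design places the probes for miR-30c-5p at chr1:23298558-23298575 (mm9), on the chromosome of Mir30c-2, although they pair with the product of both genes.

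All 5 guide strands were higher in db/db kidneys than in control kidneys, by 11.3% to 23.4%, and for each of them the lowest db/db sample lay above the highest control sample. The order of the changes was miR-30d-5p, miR-30c-5p, miR-30b-5p, miR-30a-5p and miR-30e-5p. On the log2 scale they ran from 0.15 to 0.30, with a median of 0.18, against a median of -0.024 over all 316 miRNAs tested. Each passed an adjusted p under 0.05 (limma, Benjamini-Hochberg over all 316 miRNAs, 2-sided). As background, 41.8% of the tested miRNAs were called, 24.4% were called higher in db/db kidneys, and 24.7% were higher without overlap between the groups. The share of higher among all called miRNAs was 58.3% with the scaling used here, 78.1% without scaling, 83.4% on the spike-in scale and 46.6% with quantile normalization. These shares apply to whole kidney, where more cells of a type and more RNA per cell cannot be told apart.

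miR-30d-5p, which is encoded beside miR-30b-5p, had the largest change of the 5 and the smallest SE. Its scaled signal was 845, 826, 806 and 818 intensity units in the db/db samples, against 670.0, 662, 667 and 672 in the control samples. The groups were separated by 0.26 on the log2 scale between the lowest db/db and the highest control sample, a gap far wider than the spread within either group. On the log2 scale it averaged 9.69 ± 0.029 in db/db and 9.38 ± 0.0092 in control kidneys (SD, n = 4 each). Its change was 0.30 ± 0.034 (SE, limma, Benjamini-Hochberg adjusted p = 0.000420), a 1.23-fold difference that ranked 49th from the top among the changes of the 316 miRNAs. miR-30b-5p had 1961, 1789, 1750.2 and 1851 units in db/db samples, against 1608, 1580.1, 1635 and 1648 in control samples. The groups did not overlap, and db/db replicate 1 was the highest by some distance. Its log2 change was 0.18 ± 0.046 (SE, limma, Benjamini-Hochberg adjusted p = 0.0135), or 1.14-fold, with a gap of 0.087 between the groups.

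**Figure D1:**
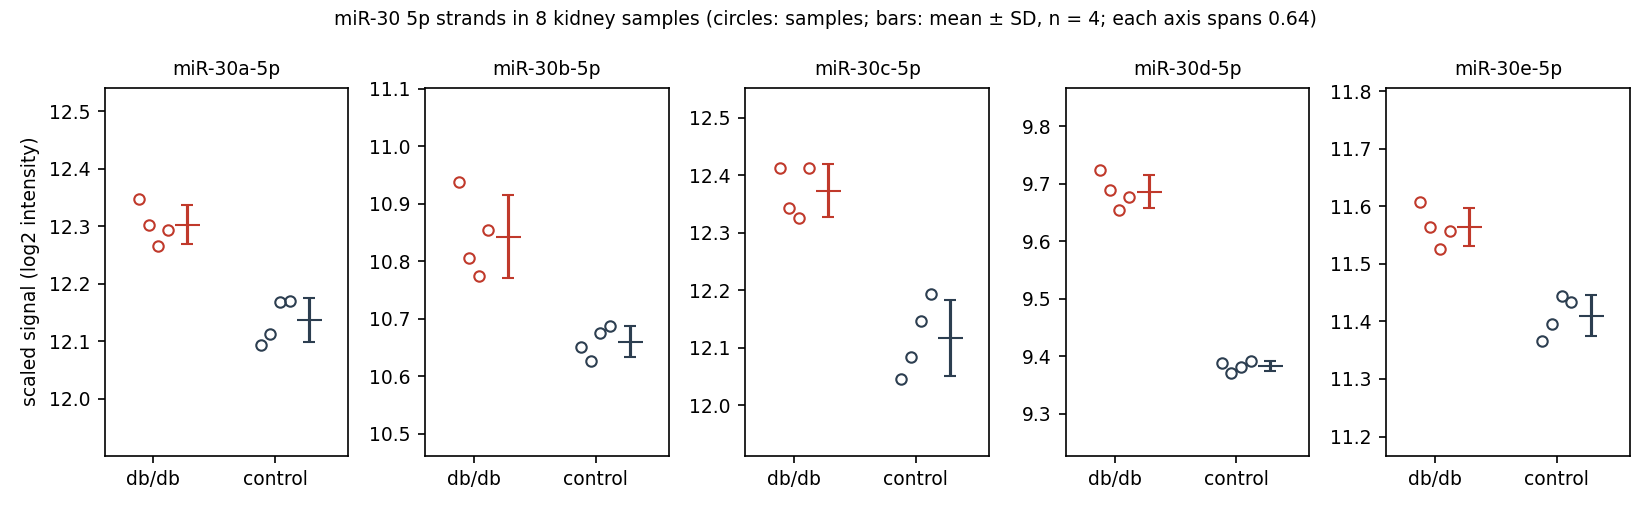
Scaled signal (log2 intensity, vertical axis) of each miR-30 guide strand in the 4 db/db and the 4 control samples, as circles in order of replicate number, with mean ± SD beside them. In every panel the db/db samples lie above the control samples, with the widest gap, 0.26, for miR-30d-5p and the narrowest, 0.082, for miR-30e-5p.

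miR-30c-5p, the strand made from 2 genes, had 5452, 5193, 5131 and 5452 units in the db/db samples, against 4229, 4340, 4535 and 4682 in the control samples. The control samples were spread more widely than the db/db samples, and the groups did not overlap. Its log2 signal averaged 12.37 ± 0.046 in db/db and 12.12 ± 0.065 in control kidneys (SD, n = 4 each), a change of 0.26 ± 0.047 (SE, limma, Benjamini-Hochberg adjusted p = 0.00306) or 1.19-fold.

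miR-30a-5p and miR-30e-5p, the strands that differ at 1 base, had the smallest changes of the 5. miR-30a-5p had 5213, 5048, 4926 and 5022 units in db/db samples, against 4372, 4431, 4601 and 4606 in control samples. Its log2 change was 0.17 ± 0.039 (SE, limma, Benjamini-Hochberg adjusted p = 0.00961), or 1.12-fold. The lowest db/db sample, replicate 3, lay 0.097 above the highest control sample on the log2 scale. miR-30e-5p had 3121, 3028, 2950.1 and 3014 units in db/db samples, against 2639, 2695, 2786 and 2767 in control samples. Its log2 change was 0.15 ± 0.038 (SE, limma, Benjamini-Hochberg adjusted p = 0.0132), or 1.11-fold, with a gap of 0.082 between the groups. Both calls were lost without db/db replicate 2, the array with the fewest detected miRNAs (289 of 1881), where the changes were 0.11 and 0.096, with a Benjamini-Hochberg adjusted p from limma of 0.0626 and 0.0817. The median change of all tested miRNAs then was -0.084 in place of -0.024, and the median of the 5 strands lay 0.22 above it in place of 0.21. The calls of miR-30b-5p, miR-30c-5p and miR-30d-5p held without any 1 array.

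**Figure D2:**
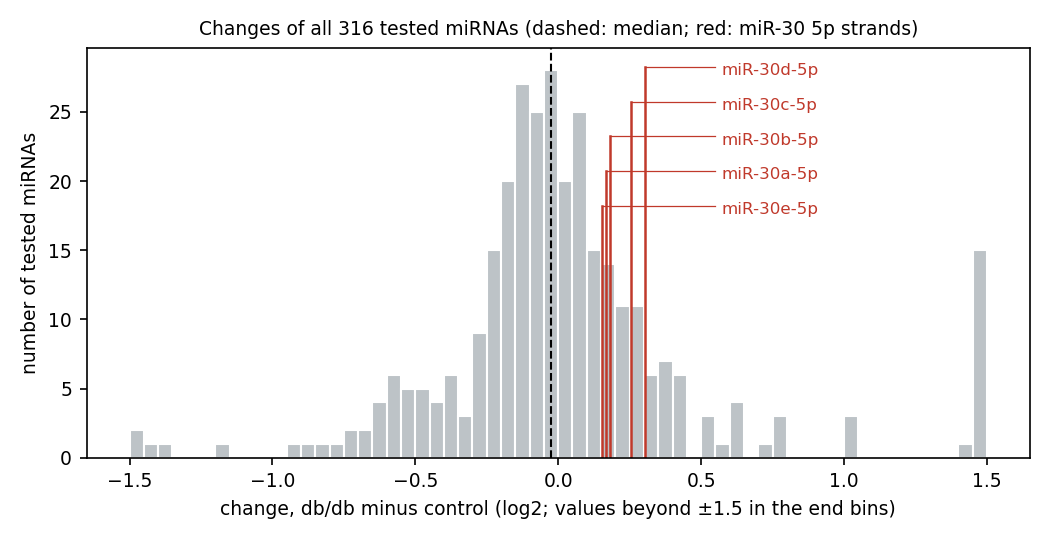
Number of tested miRNAs (vertical axis) by change between db/db and control kidneys (log2, horizontal axis), with the median of all, -0.024, as a dashed line and the miR-30 guide strands in red. The 5 strands lie between 0.15 and 0.30, to the right of the median, and 85 of the 316 miRNAs changed by as much as miR-30e-5p or more.

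The arrays were also compared one by one. With each strand centred on its own mean over the 8 arrays, the mean of the 5 was 0.16, 0.093, 0.062 and 0.11 in db/db replicates 1 to 4 and -0.14, -0.13, -0.085 and -0.073 in control replicates 1 to 4. The brightness of the arrays before scaling also differed. On the log2 scale the 75th percentile over miRNAs seen on every array was 8.73, 8.57, 8.67 and 8.64 in db/db replicates 1 to 4, and 8.40, 8.51, 8.52 and 8.67 in control replicates 1 to 4. Within the control group the mean of the 5 strands followed that order, though miR-30b-5p, miR-30d-5p and miR-30e-5p on their own did not. Within the db/db group it did not follow that order. There replicate 1 was the highest in both, but replicate 3, brighter than replicates 2 and 4, had the lowest mean of the strands, 0.062. The part of array brightness in the change was not tested. The strands are themselves bright, and of the 46 other tested miRNAs with a mean signal at least that of miR-30d-5p, the dimmest of them, 17.4% were called higher and 6.52% lower, with a median change of 0.050. All arrays lay on 1 slide with the db/db samples in a row of their own, so the genotype and the row on the slide cannot be told apart.

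The members were next compared with each other, since a difference in change within an array does not depend on a factor common to all miRNAs of that array. Of the 10 pairs of strands, 6 differed in their change (2-sided exact permutation test with 70 assignments, Benjamini-Hochberg adjustment over 10 pairs, adjusted p = 0.0476). Each of these 6 had the smallest p the design allows, 0.0286, and with fewer than 6 such pairs none would have passed. The pairs share strands and are not separate results, and pairs of other miRNAs were not tested. miR-30d-5p rose more than miR-30e-5p by 0.15 on the log2 scale, more than miR-30a-5p by 0.14 and more than miR-30b-5p, its neighbour on chromosome 15, by 0.12. miR-30c-5p rose more than miR-30e-5p by 0.10 and more than miR-30a-5p by 0.089. The sixth pair, miR-30a-5p and miR-30e-5p, differed by 0.012. That difference is small beside the change of either strand, and it passed because the ratio of the strands did not overlap between the groups. The pairs that did not pass were miR-30c-5p with miR-30d-5p, at -0.047 (adjusted p = 0.286 in the exact permutation test), miR-30b-5p with miR-30c-5p, at -0.073 (0.0816), miR-30b-5p with miR-30e-5p, at 0.029 (0.286), and miR-30a-5p with miR-30b-5p, at -0.017 (0.657). The count of 6 was 0 after leaving out any 1 of the 8 arrays, with quantile normalization, and when probes were combined by their median, by the mean of their log2 values or by the brightest probe. Leaving out 1 array leaves groups of unequal size and fewer assignments, with the same smallest p. With groups of unequal size, the assignment at the other extreme can have the larger difference. A pair whose groups do not overlap then misses the smallest p. The 0 for leaving out an array therefore cannot show whether the difference of a pair was lost. The difference of miR-30d-5p and miR-30e-5p was 0.14 to 0.17 without 1 array, 0.15 with the median over probes and 0.29 with quantile normalization, and fewer than 6 pairs had the smallest p in each of these settings.

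Each strand was read by 2 or 3 probes of different length, 11 probes with 150 spots in all, every spot of which was well above background on all arrays. The probes for miR-30a-5p and miR-30e-5p are shown because they differ from each other only at the base in capitals, opposite position 13 of the miRNA.
miR-30a-5p, 15 bases: cttccagtcGaggat
miR-30a-5p, 16 bases: cttccagtcGaggatg
miR-30a-5p, 17 bases: cttccagtcGaggatgt
miR-30e-5p, 16 bases: cttccagtcAaggatg
miR-30e-5p, 17 bases: cttccagtcAaggatgt
The array's design places the longest of them at chr1:23279119-23279134 and chr4:120445233-120445248 (mm9), spans 1 base shorter than the probes themselves. Each probe pairs with the last 15 to 17 bases of its miRNA and reaches at most 3 bases into the seed, and with the other miRNA of this pair it has 1 mismatch. How much of either signal came from the other strand was not tested.

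Of the 11 probes, 10 were called higher in db/db kidneys in a fit over all 696 probes of the tested miRNAs, of which 39.8% were called and 24% were called higher (limma, Benjamini-Hochberg over the probes). The 3 probes of miR-30a-5p changed by 0.16, 0.17 and 0.17 on the log2 scale, and the 2 of miR-30e-5p by 0.14 and 0.16. Those of miR-30c-5p changed by 0.27 and 0.25 and those of miR-30d-5p by 0.31 and 0.30. miR-30b-5p was the exception: its longer probe changed by 0.19 ± 0.037 (SE), while its shorter and dimmer probe, with 0.13 ± 0.063 (SE), stayed short of the threshold (limma, Benjamini-Hochberg adjusted p = 0.150) and its groups overlapped. Without db/db replicate 2 the number of probes called was 6.

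**Figure D3:**
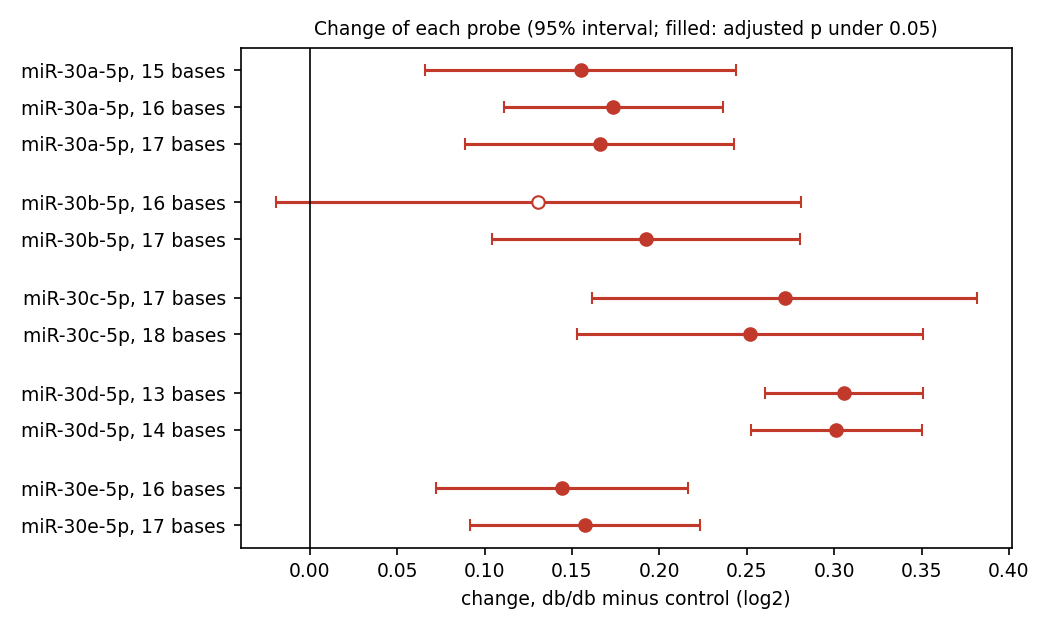
Change between db/db and control kidneys (log2, horizontal axis) of each of the 11 probes with its 95% interval, grouped by strand and labelled with the probe's length; filled circles passed the threshold. Probes of the same strand lie close together, at 0.30 and 0.31 for miR-30d-5p, and the 16-base probe of miR-30b-5p is the open circle.

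The other arm of each hairpin, the 3p or passenger strand, is mostly discarded when the guide is loaded. All 6 miR-30 3p arms were tested; miR-30a-3p rose by 0.30, miR-30e-3p by 0.30 and miR-30c-1-3p by 1.00 on the log2 scale, and miR-30b-3p, miR-30d-3p and miR-30c-2-3p, with 0.20, 0.083 and 0.021, did not pass (limma, Benjamini-Hochberg over the 316 miRNAs). miR-30a-3p had 415.0, 403, 415.1 and 424 units in db/db samples, against 306, 335, 350.1 and 354 in control samples. miR-30e-3p had 383, 368, 347 and 380.2 units in db/db samples, against 276, 300.3, 303 and 324 in control samples. The groups did not overlap for either arm, and in both the lowest sample was control replicate 1. These arms are nearly the same in sequence, and how much of either signal came from the other was not tested. miR-30b-3p passed without control replicate 2 (0.30) and miR-30d-3p without control replicate 1 (0.13). The log2 difference of 5p and 3p signal was compared between the groups for the 43 hairpins with both arms tested, of which 30.2% were called, with 23.3% higher in db/db samples and 6.98% lower (limma, Benjamini-Hochberg over the 43). Of the 6 miR-30 hairpins 3 were called, and in different directions. The calls for Mir30c-1 and Mir30c-2 share the same miR-30c-5p signal, which cannot be assigned to 1 gene, so they are not separate results.

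miR-30c-5p rose more than the 3p arm of Mir30c-2. The log2 difference was 6.52, 6.50, 6.52 and 6.57 in db/db samples, against 6.22, 6.23, 6.30 and 6.42 in control samples, a change of 0.23 ± 0.055 (SE, limma, Benjamini-Hochberg adjusted p = 0.0177). Leaving out db/db replicate 3 ended the call (limma, Benjamini-Hochberg adjusted p = 0.0532). Against the 3p arm of Mir30c-1 the change was -0.75 ± 0.16 (SE, limma, Benjamini-Hochberg adjusted p = 0.0146), the opposite direction. miR-30c-1-3p was dim, with 22.1, 20.4, 16.0 and 16.9 units in db/db samples and 7.39, 8.31, 13.0 and 9.44 in control samples. Normexp background correction was also run, with an offset of 50 units added to each signal, more than miR-30c-1-3p itself gave. An added constant shrinks the log2 change of so dim a miRNA. With normexp the rise of miR-30c-1-3p was 0.080 and did not pass, and the change of the arm difference turned to 0.19. For Mir30d the guide rose more than the 3p arm, by 0.22 ± 0.062 (SE, limma, Benjamini-Hochberg adjusted p = 0.0302), and leaving out any of db/db replicates 1, 2 and 3 or control replicate 2 ended the call, with limma adjusted p from 0.0552 to 0.0833. It was 0.076 with the median over probes and turned to -0.26 with Agilent's total gene signal. miR-30d-3p was dim, with 8.92, 9.05, 8.85 and 9.65 units in db/db samples and 9.50, 8.46, 8.22 and 8.28 in control samples, which overlapped. Mir30a, with -0.14 (adjusted p = 0.0571), Mir30e, with -0.14 (0.0554), and Mir30b, with -0.019 (0.896), did not pass in the same fit.

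**Figure D4:**
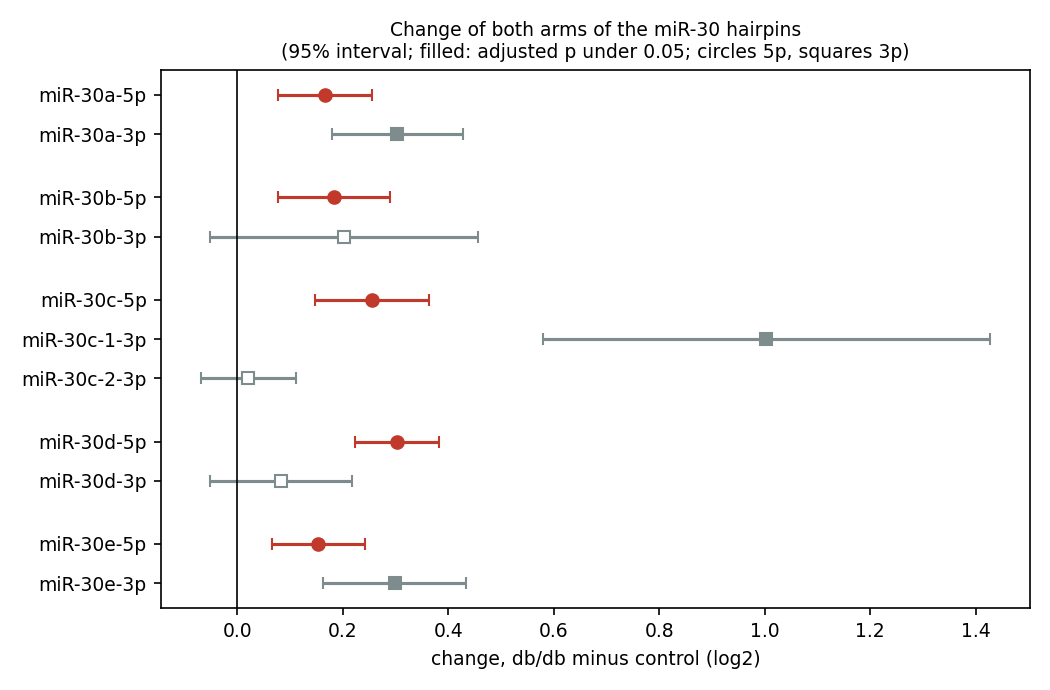
Change between db/db and control kidneys (log2, horizontal axis) of the 5p strands (red circles) and the 3p arms (grey squares) of the miR-30 hairpins, with 95% intervals; filled symbols passed the threshold. The 5 guide strands lie between 0.15 and 0.30 with narrow intervals, whereas the 3p arms run from 0.021 for miR-30c-2-3p to 1.00 for miR-30c-1-3p.

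Among the other tested miRNAs, those whose profile over the 8 arrays was closest to the mean of the 5 strands were miR-652-3p, miR-362-3p, miR-340-5p, miR-27b-3p and miR-140-5p. Their root mean square distance from it was 0.025 to 0.044 on the log2 scale. The 5 strands themselves, which are part of that mean, lay 0.025 to 0.050 from it. The changes of these miRNAs were 0.25, 0.18, 0.26, 0.23 and 0.26, which the choice by profile largely fixes. This choice depends on the scaling, since none of the 5 were among the closest 5 after quantile normalization.

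Markers of the cells a whole kidney holds were read on the same arrays. For comparison, 24.4% of all tested miRNAs were called higher in db/db kidneys and 17.4% lower. Of 7 miRNAs enriched in kidney tubules, all tested, 4 were called higher in db/db kidneys and 0 lower (limma fit of all miRNAs). miR-204-5p changed by 1.05 on the log2 scale and passed, whereas miR-192-5p with 0.078, miR-194-5p with -0.0072 and miR-200b-3p with 0.070 did not. The summed scaled signal of the 7 was 13041 to 13637 in db/db samples against 11581 to 12536 in control samples. Of 7 leukocyte miRNAs 6 were called lower and 0 higher, among them miR-142a-3p with -1.16 and miR-223-3p with -0.83, with a summed signal of 298 to 410.2 in db/db samples against 661 to 843 in control samples. None of 4 endothelial miRNAs passed, although their summed signal, 4271 to 4458 in db/db samples and 4551 to 4776 in control samples, did not overlap. Neither of 2 miRNAs of smooth muscle and pericytes passed, with sums of 452 to 508 in db/db and 452 to 519 in control samples. Of 3 erythroid miRNAs 2 were tested and neither passed, with sums of 648 to 3581 in db/db and 706 to 3080.3 in control samples. miR-122-5p, a hepatocyte miRNA, had 50.2 to 133 units in the db/db samples and was undetected on each control array. Of 3 striated muscle miRNAs miR-1a-3p passed, with 0.37 and overlapping groups, and miR-133a-3p and miR-206-3p were not detected on any array. The part of cell composition in the rise of the miR-30 strands was not tested.

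The direction of the 5 changes was the same under each of the 24 alternatives, while the calls were not. miR-30c-5p and miR-30d-5p passed in 23 of 24, and miR-30a-5p, miR-30b-5p and miR-30e-5p in 19 of 24. With quantile normalization the changes of miR-30b-5p and miR-30e-5p shrank to 0.028 and 0.021, and with the 75th percentile over all 1881 miRNAs 0 of the 5 passed (limma), at changes of 0.17 to 0.32. Scaling moves all miRNAs: the median change of all tested miRNAs was 0.10 without scaling and 0.16 on the spike-in scale, shifts that apply to each miRNA alike. Quantile normalization can also move miRNAs against each other, and there the median of the 5 strands lay 0.15 above that of all, against 0.21 as reported.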

How the data were processed

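The deposited files give an intensity for each spot of single-colour (Cy3) arrays, which the authors obtained with Agilent's Feature Extraction software, version 12.0.3.1, as the headers state. Per the file headers, spatial detrending was on and background correction off. In addition the authors deposited linear ratio values per miRNA and array, whose centring and per-array factor are not given in the sources used here. They served only as an alternative.

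Spots that were not outliers were averaged per probe, and probes per miRNA. Arrays were brought to a common 75th percentile, taken over the 269 miRNAs seen on all 8. Signals below a floor of 2.80 units, set from the dimmest detected miRNAs, were raised to it. A miRNA was tested, on log2 values, if all 4 arrays of either group detected it, which left 316, with limma 3.58.1 in R 4.3.3. Figures were drawn with matplotlib 3.10.9. Samples were grouped by their titles. The number of arrays limits the precision. The steps were tested on simulated data.

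The members, lists and alternatives were chosen with earlier results of these data known. Named were the members, the miR-30 3p arms, miRNAs with the same seed, the 5 closest profiles and the marker lists. The comparison with equally bright miRNAs was added after values were seen. Alternatives covered scaling, signal, summary over probes, filter, floor, moderation, the replicate block and leaving out each array. Gene neighbours and hosts were taken from RefSeq (GRCm38.p6).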

Additional observations from a re-analysis of the deposited data

How the results depend on the processing

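Under the 24 alternatives no change of the 5 strands turned its direction. With scaling to the 75th percentile of all 1881 miRNAs, a percentile of only 2.31 to 4.14 intensity units, 0 of the 5 strands and 0 of their probes were called, 23 miRNAs were called higher and 11 lower, and miR-30a-5p to miR-30e-5p had changes of 0.18, 0.20, 0.27, 0.32 and 0.17. With quantile normalization 2 strands and 5 probes were called, and miR-30a-5p, miR-30b-5p and miR-30e-5p had 0.085, 0.028 and 0.021. In the authors' deposited table of ratios 3 strands were called, with 0.12 for miR-30a-5p and 0.11 for miR-30e-5p short of the threshold. With the brightest probe 2 were called, with 0.098, 0.12 and 0.089 for miR-30a-5p, miR-30b-5p and miR-30e-5p, and 88 miRNAs were lower. miR-30b-5p also failed with the mean of log2 over probes (0.17) and with all miRNAs tested (0.18), where 27 miRNAs were lower. With no scaling 28 miRNAs were lower, and with spike-in scaling 141 were higher and 28 lower.

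Leaving out 1 array each, the strands called numbered 3 to 5, their probes 6 to 10 and the miR-30 hairpins 1 to 4, and the changes ran from 0.11 to 0.18 for miR-30a-5p and from 0.096 to 0.17 for miR-30e-5p. Over the same omissions 69 to 82 miRNAs were higher and 42 to 84 lower. The count of hairpins was 5 with miRNAs detected on all arrays, 5 with no floor and 1 with all miRNAs. The numbers in the titles were not taken to pair the samples, since nothing in the labels says that they do. The deviations of same-numbered samples from their group means had correlations of -0.43, 0.41, -0.046 and -0.075, which cannot show whether samples were paired. With the replicate block all 5 strands and 11 probes were called, and 1 hairpin. The 6 pairs of strands became 0 with quantile normalization, with the median over probes, with the mean of log2, with the brightest probe and without any 1 of the 8 arrays (range 0 to 0). With an array left out the groups are unequal, and a pair without overlap can miss the smallest p of the permutation test. Those counts therefore cannot show whether a pair's difference was lost. With the block, sign flips over 4 numbers cannot reach the threshold, so the pairs gave values only. Of the 5 closest profiles 3 remained with the mean absolute difference and 0 with quantile normalization.

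Some values turned sign, among them 2 called arm differences. miR-30c-2-3p had -0.055 with quantile normalization, -0.036 with normexp, -0.026 in the authors' deposited table and -0.027 with the brightest probe, and -0.034 to 0.034 when leaving out 1 array. miR-30d-3p had -0.14 with quantile normalization, -0.071 with normexp, -0.16 with the mean of log2 and -0.080 with the brightest probe, and miR-30b-3p had -0.051 with normexp. The arm difference of Mir30b was 0.24 with normexp, 0.096 with the brightest probe and 0.0021 to 0.053 without control replicate 1, control replicate 4 or db/db replicate 2. The called ones were that of Mir30d, 0.22 as reported, which was -0.26 with the gene total signal and -0.26 in the authors' deposited table, and that of miR-30c-5p with miR-30c-1-3p, -0.75 as reported, which was 0.19 with normexp. The difference between miR-30a-5p and miR-30b-5p was 0.057 with quantile normalization and 0.0033 with the mean of log2. The cause was not tested for any of these. The normexp values carry the offset of 50 units, which is large beside the signals of the dim 3p arms. The 3p arms of Mir30b, Mir30c-1 and Mir30d gave low signals, of which only the detection on all arrays was checked.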
